A study of Mus musculus with 12 samples.

Results

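The mitosis and cytokinesis genes described here are a list of 49 genes that act between entry into mitosis and the parting of the daughter cells. A member was measured by the probe set that the platform annotation gives to that one symbol, and by the brightest such probe set where there were several. This found 47 of the 49 genes among 22180 genes in all. Ccnb1 (cyclin B1) and Ncapg (a condensin subunit) were not analysed here, because no probe set carried their symbol alone. All 47 had a mean log2 value above 4.20, the limit of the dimmest 25% of genes.

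The 12 samples were primary smooth muscle cells grown from the aorta of C57BL/6J mice and used at passage 3 or 4. The medium was DMEM, a standard culture medium, supplemented with 10% fetal calf serum. A group of 6 was kept in 0.3 g/l glucose (1.7 mM) and a group of 6 in 4.5 g/l (25 mM), and RNA was read on an Affymetrix mouse whole-transcript array. The series text gives 14 days of culture and the sample labels give 1 week. The labels name no separate animals or cultures for the replicates, so each p-value is set against a spread among samples that could be technical only.

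Dividing cells first switch on Cdk1 with its cyclins. Condensins then compact the chromosomes, kinetochores fasten them to spindle microtubules, and a checkpoint holds anaphase back until each chromosome is attached. Anaphase begins when the APC/C ubiquitin ligase frees separase, and the spindle midzone then places the actomyosin furrow that cuts the cell. Most of these genes are transcribed in G2 and M phase, so their RNA in a culture follows the share of its cells that are cycling. In bulk RNA, fewer dividing cells and less RNA per dividing cell cannot be told apart. Contractile smooth muscle cells of the vessel wall rarely divide, and they enter the cycle in culture.

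A known control element of such genes is the cell cycle homology region, with the core letters TTTGAA, which usually lies at the transcript start with CCAAT boxes upstream. Complexes built on MuvB bind it, as a repressor in resting cells and with B-Myb and FoxM1 as an activator in G2. The promoter stretches of 6 members are shown because they carry these letters or, in Ccnb2, CCAAT alone. The TTTGAA matches of Ccnb2, at -167 and 5 counted from the start, lie outside its stretch. They come from RefSeq (build GRCm38.p6), read 5′ to 3′ on the gene's strand, and capitals mark TTTGAA or CCAAT on either strand (TTCAAA and ATTGG on the other). Cdk1 is at chr10:69352913-69353012 (minus strand), Ccnb2 at chr9:70421555-70421654 (minus), Cdc20 at chr4:118437344-118437443 (minus) and Kif11 at chr19:37376282-37376381 (plus), each covering the 100 bases before the start. Top2a is at chr11:99024200-99024299 (minus), from -110 to -11 counted from the start, and Mki67 at chr7:135716470-135716579 (minus), from -200 to -91.
Cdk1: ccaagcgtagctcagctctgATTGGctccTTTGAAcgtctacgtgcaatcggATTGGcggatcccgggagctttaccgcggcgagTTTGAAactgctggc
Ccnb2: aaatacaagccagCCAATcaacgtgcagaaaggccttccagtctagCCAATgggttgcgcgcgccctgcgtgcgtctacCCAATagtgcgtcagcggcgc
Cdc20: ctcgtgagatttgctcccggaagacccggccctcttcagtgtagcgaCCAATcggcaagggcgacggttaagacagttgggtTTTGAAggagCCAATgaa
Kif11: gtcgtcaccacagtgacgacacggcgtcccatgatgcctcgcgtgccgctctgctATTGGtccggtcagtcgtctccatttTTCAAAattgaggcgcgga
Top2a: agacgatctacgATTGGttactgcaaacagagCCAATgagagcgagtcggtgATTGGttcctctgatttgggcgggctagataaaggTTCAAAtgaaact
Mki67: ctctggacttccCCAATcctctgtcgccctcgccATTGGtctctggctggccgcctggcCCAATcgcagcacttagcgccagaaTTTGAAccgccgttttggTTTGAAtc

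In 4 other members the letters are shown as sites of 30 bases. Anln (chr9:22389161-22389190, minus strand), Kif23 (chr9:61946770-61946799, minus) and Kif20b (chr19:34922358-34922387, plus) carry them within the first transcribed bases. Anln and Kif20b hold the letters in duplicate. Espl1 (chr15:102296249-102296278, plus) is shown because it carries both motifs and did not pass the test. The same holds for Cdca3 and Cdca8, whose letters are not shown.
Anln: tgaaaTTCAAAtTTTGAAcggccgtggtag
Kif23: tgTTTGAAatgcgccgggcgggcgcacact
Kif20b: gccattgTTTGAATTTGAAaaccgggagga
Espl1: ATTGGtcactagggataTTTGAAaggaggt

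RefSeq promoter windows, from 250 bases before to 50 after a transcript start, were found for 41 of the 49 genes. Aurkb, Incenp, Tpx2, Dlgap5, Kif20a, Smc4, Cdca2 and Ccna2 had no entry. TTTGAA on either strand was in a window of 31 of the 41 genes (75.6%), against 20.2% of all 27025 genes with a window. CCAAT on either strand was also in 31 of 41 (75.6%, against 41.1% of all genes), and the same window held both in 27 (65.9%, against 7.97%). TTTGAA lay within 50 bases of the start in 28 of 41 genes (68.3%), against 4.94% of all 32851 windows. The palindrome TTCGAA was in 3 genes, Bub1, Bub1b and Top2a (7.32%, against 1.8% of all genes). The E2F form TTCCCGC was in 1 member, Ncapg (2.44%, against 5.29% of all genes), TTTGGCGC in 0 (against 0.585%) and TATAAA in 1, Kif2c (against 15.7%), each on either strand and searched independently of the other motifs. Matches of letters are a description of these windows and were not read as bound sites.

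**Figure D1:**
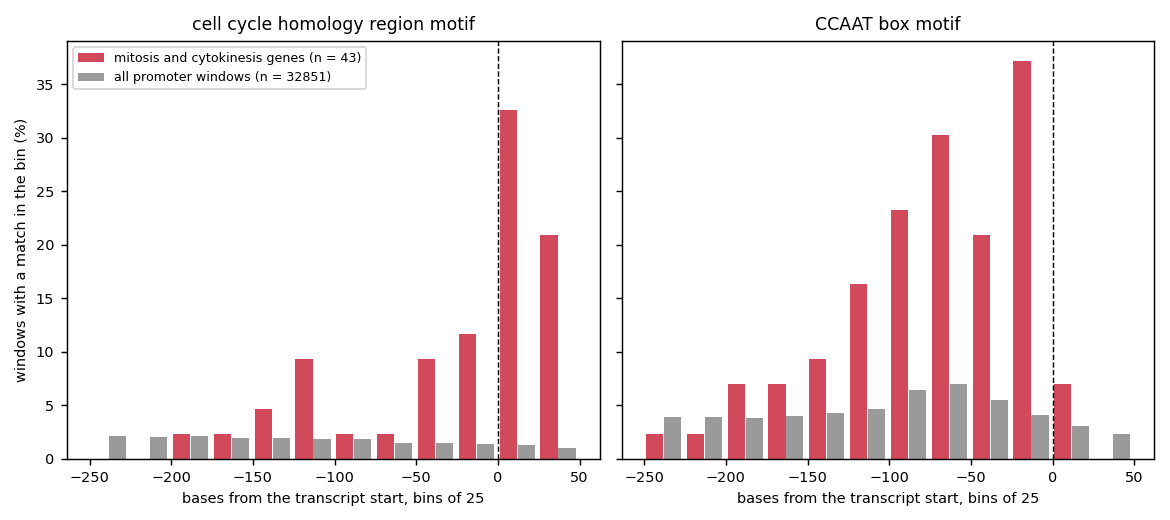
Share of promoter windows (%) with a match on either strand, by distance of the match's first base from the transcript start in bins of 25 bases, for TTTGAA (left) and CCAAT (right), in the 43 windows of 41 mitosis and cytokinesis genes (red) and all 32851 windows (grey). In the members TTTGAA is most frequent in the first 25 transcribed bases (32.6% of windows against 1.31%), and CCAAT in the 25 bases before the start (37.2% against 4.05%).

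The windows of the midzone and furrow genes all held TTTGAA (6 of 6), as did those of 7 of 8 spindle genes. The letters were in 4 of 6 kinetochore genes and 5 of 8 entry kinases and cyclins. Among other mitosis genes of the lists described further on, TTTGAA was in 23 of 52 that were higher in 4.5 g/l (44.2%) and in 18 of 81 that did not pass (22.2%). TTCGAA went the other way, in 2 of those 52 (3.85%) and 12 of those 81 (14.8%). Either form was in 24 of 52 (46.2%) and 29 of 81 (35.8%), a smaller contrast. TTTGAA was in 4 of 26 genes of S phase entry and DNA replication (15.4%), where TTCCCGC was in 11 (42.3%).

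Almost all mitosis and cytokinesis genes were higher in 4.5 g/l glucose. Of the 47 measured, 44 rose and 3 did not pass (limma, Benjamini-Hochberg adjusted over all 22180 genes, threshold 0.05), where 7.01% of all genes tested rose. No member fell in limma, where 8.52% of all genes did (0 also at an unadjusted p under 0.05, and 0 in the exact rank-sum test, in which 4.63% of all genes and 39 members were higher), and all 47 differences were positive. The median difference was 0.50 on the log2 scale, against -0.0069 over all genes, and the differences ran from 0.11 for separase, Espl1, to 1.10 for anillin, Anln. At least 1.5-fold higher were 13 members, where 1.92% of all genes were. The arrays of both groups did not overlap in 31 members, all higher in 4.5 g/l, where 3.49% of all genes were higher and 2.9% lower without overlap.

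The array of 0.3 g/l replicate 4 stood apart from its group and lay between the groups for these genes. The mean over the 47 genes was 7.48 to 7.53 (log2) in the other 5 arrays of 0.3 g/l, 7.81 in replicate 4, 8.12 to 8.17 in the replicates of 4.5 g/l numbered 1 to 3, and 7.93 to 7.98 in those numbered 4 to 6. Without 0.3 g/l replicate 4, 44 of 47 rose (10.3% of all genes did) and the median difference was 0.54. Within replicates 1 to 3, 41 of 47 rose (5.92% of all genes) with a median of 0.67. Within replicates 4 to 6, that array included, 0 of 47 passed in limma, where 0.0947% of all genes rose. An unadjusted limma p under 0.05 was found for 32 members, against 3699 of all 22180 genes. The difference was positive in 45 members, against 10226 of all genes, and the median over the members was 0.35. With 0.3 g/l replicate 4 left out of replicates 4 to 6, 30 of 47 rose (6.55% of all genes) with a median of 0.41.

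**Figure D2:**
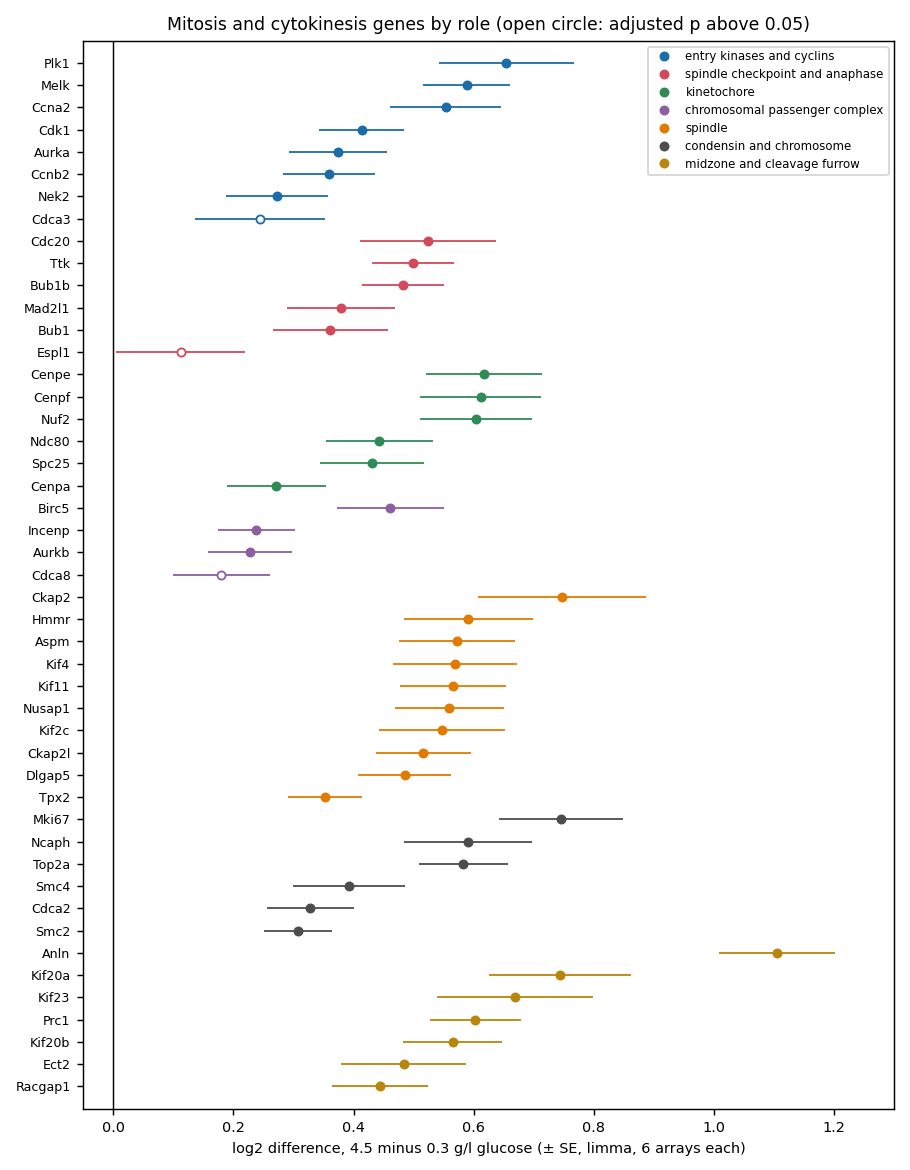
Log2 difference (4.5 minus 0.3 g/l glucose, ± SE from limma, 6 arrays in each group) of the 47 measured genes, grouped and coloured by role and ordered by size. All points lie above 0, from 0.11 for Espl1 to 1.10 for Anln, and the open circles mark the 3 genes that did not pass (Cdca3, Espl1 and Cdca8).

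The cultures carried smooth muscle markers, with Acta2 averaging 13.15 (log2) in 0.3 g/l and 13.83 in 4.5 g/l. Of 10 such markers 8 rose, where 7.01% of all genes did. Their mean was 8.74 to 8.91 in 0.3 g/l without replicate 4 and 10.00 in replicate 4. In 4.5 g/l it was 10.51 to 10.62 in replicates 1 to 3 and 10.72 to 10.77 in replicates 4 to 6. The endothelial marker Emcn, chosen to check the labelled cell type, averaged 11.71 in 0.3 g/l and 11.28 in 4.5 g/l. This was far above the mean of the endothelial list given below. Of 12 endothelial markers 1 fell, where 8.52% of all genes fell. Without 0.3 g/l replicate 4, 3 of the 12 fell, where 3007 of all 22180 genes did. The endothelial mean was 7.48 to 7.52 in 0.3 g/l without replicate 4 and 7.02 in replicate 4. In 4.5 g/l it was 7.51 to 7.60 in replicates 1 to 3 and 6.81 to 6.88 in replicates 4 to 6. Within 4.5 g/l, the arrays with the lower endothelial and fibroblast means were those with the lower means of the mitosis genes. In 0.3 g/l it was the other way for endothelial markers. There replicate 4 had the lowest endothelial mean and the highest mean of the mitosis genes (7.81, against 7.48 to 7.53). Of 8 macrophage markers 0 passed in limma (0 also at an unadjusted p under 0.05 and 0 in the rank-sum test). Of these, 3 were in the dimmest 25% of genes (Ptprc, Adgre1 and Itgam). Of 6 fibroblast markers 1 rose, Col14a1, where 7.01% of all genes rose. The fibroblast mean was 5.11 to 5.34 in 0.3 g/l, 5.48 to 5.54 in the replicates of 4.5 g/l numbered 1 to 3, and 5.10 to 5.21 in those numbered 4 to 6. Of 8 mesothelial and epithelial markers 1 rose, Krt18, beside the same 7.01% of all genes. Single calls in lists this short were not read as results about a cell type. The scale of these arrays has no 0, so no marker can be called absent. The part of cell composition in the differences of the mitosis genes was not tested.

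Genes of the spindle midzone and cleavage furrow rose in 7 of 7 members, with a median log2 difference of 0.60. Anillin, Anln, which ties actin, myosin and septins together in the furrow, had the largest difference of all 47. It lay at 8.82, 8.90 and 9.45 (lowest, median and highest log2 value) in 0.3 g/l and at 9.97, 10.08 and 10.23 in 4.5 g/l. The groups did not overlap, and the highest value of 0.3 g/l was replicate 4. The difference was 1.10 ± 0.10 (log2 ± SE, probe set 17524969, limma adjusted p = 2.32e-05), or 2.15-fold, and 0.96 within replicates 4 to 6.

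Prc1, which bundles antiparallel microtubules at the midzone, lay at 8.81, 8.89 and 9.12 in 0.3 g/l and at 9.33, 9.52 and 9.64 in 4.5 g/l. The groups did not overlap, and the 4.5 g/l arrays fell into a higher set of 9.62 to 9.64 (replicates 1 to 3) and a lower set of 9.33 to 9.43 (replicates 4 to 6). The kinesin Kif20a, which carries Aurora B and polo kinase to the midzone, rose by 0.74 ± 0.12 and its relative Kif20b by 0.56 ± 0.08.

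Centralspindlin, the complex of the kinesin Kif23 and the GTPase-activating protein Racgap1, recruits Ect2, which helps to place the furrow. Kif23 rose by 0.67 ± 0.13 (1.59-fold, limma adjusted p = 0.00359), Racgap1 by 0.44 ± 0.08 and Ect2 by 0.48 ± 0.10. Kif23 lay at 7.83 to 7.93 in 0.3 g/l except for replicate 4, which at 8.69 was above the 4.5 g/l median of 8.66. Its groups therefore overlapped through that 1 array, and it did not pass the exact rank-sum test (adjusted p = 0.133). Ect2 did not pass that test either (adjusted p = 0.0964), with replicate 4 at 9.55 and the 4.5 g/l arrays at 9.40 to 9.76.

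Spindle genes rose in 10 of 10 members, with a median of 0.56. Ckap2, a microtubule stabiliser of the spindle poles, had the largest difference of this group, 0.75 ± 0.14, and also the widest spread. It lay at 8.10 to 8.64 in 0.3 g/l, at 9.18 to 9.37 in the replicates of 4.5 g/l numbered 1 to 3, and at 8.66 to 8.77 in those numbered 4 to 6. The difference was 1.17 within replicates 1 to 3 and 0.33 within replicates 4 to 6 (0.45 without 0.3 g/l replicate 4), so its size depended on the arrays used. Its relative Ckap2l lay at 6.35, 6.46 and 6.70 in 0.3 g/l and at 6.86, 7.06 and 7.19 in 4.5 g/l, without overlap.

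Kif11, the motor that pushes the spindle poles apart, lay at 7.49, 7.62 and 8.05 in 0.3 g/l and at 8.15, 8.22 and 8.31 in 4.5 g/l. The groups did not overlap, and the difference was 0.57 ± 0.09 (probe set 17359020, limma adjusted p = 0.000939). Kif4, a chromosome-bound motor, rose by 0.57 ± 0.10, and the microtubule-depolymerising Kif2c by 0.55 ± 0.10. The remaining spindle genes rose by 0.35 (Tpx2, which activates Aurora A) to 0.59 (Hmmr, a spindle pole protein). Aspm, which focuses the spindle poles, Nusap1, which binds microtubules near chromosomes, and Dlgap5, which stabilises kinetochore fibres, lay between them.

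Kinetochore genes rose in 6 of 6 members, with a median of 0.52. Cenpe, a kinesin that moves chromosomes to the spindle equator, lay at 7.81, 7.89 and 8.26 in 0.3 g/l and at 8.36, 8.54 and 8.83 in 4.5 g/l. The groups did not overlap, and the difference was 0.62 ± 0.10. Cenpf, a large protein of the outer kinetochore, rose by 0.61 ± 0.10, with 7.85 to 7.99 in the replicates of 4.5 g/l numbered 1 to 3, and 7.48 to 7.58 in those numbered 4 to 6.

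The Ndc80 complex, the main microtubule coupler of the kinetochore, had 3 subunits among the members. Nuf2 lay at 7.76, 7.83 and 8.36 in 0.3 g/l and at 8.42, 8.52 and 8.60 in 4.5 g/l, and its difference was 0.60 ± 0.09. Ndc80 itself rose by 0.44 ± 0.09 and Spc25 by 0.43 ± 0.09. Cenpa, the histone H3 variant that marks centromeres, had the smallest difference of the kinetochore genes, 0.27 ± 0.08 (limma adjusted p = 0.0378). It lay at 7.04 to 7.38 in 0.3 g/l and at 7.30 to 7.64 in 4.5 g/l, with overlap, and its difference was 0.51 within replicates 1 to 3 and 0.03 within replicates 4 to 6 (0.06 without 0.3 g/l replicate 4). The call of Cenpa ended when any of 8 of the 12 arrays was left out (limma adjusted p = 0.0552 to 0.0898), under median centring (0.0753) and in the exact rank-sum test (0.0964).

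Checkpoint and anaphase genes rose in 5 of 6 members, with a median of 0.43. Ttk (Mps1), the kinase at the head of the spindle checkpoint, lay at 6.47, 6.59 and 6.68 in 0.3 g/l and at 6.92, 7.09 and 7.28 in 4.5 g/l, without overlap. Bub1b (BubR1), a part of the complex that inhibits APC/C, lay at 5.86, 6.05 and 6.24 in 0.3 g/l and at 6.48, 6.51 and 6.64 in 4.5 g/l, also without overlap. Their differences were 0.50 ± 0.07 and 0.48 ± 0.07. Cdc20, the APC/C activator that the checkpoint restrains, rose by 0.52 ± 0.11, the checkpoint protein Mad2l1 by 0.38 ± 0.09 and the kinase Bub1 by 0.36 ± 0.10. Cdc20 and Mad2l1 overlapped between groups and did not pass the exact rank-sum test (adjusted p = 0.0964 each). Mad2l1 differed by 0.61 within replicates 1 to 3 and by 0.15 within replicates 4 to 6, and Cdc20 by 0.80 and 0.25. Espl1, separase, which cuts cohesin at anaphase, lay at 5.53, 5.88 and 6.07 in 0.3 g/l and at 5.55, 6.02 and 6.09 in 4.5 g/l. Both groups covered the same range, and the difference of 0.11 ± 0.11 did not pass (limma adjusted p = 0.572).

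Of the mitotic kinases, cyclins and Cdca3, 7 of 8 rose, with a median of 0.39. Cdk1 lay at 7.90, 8.06 and 8.32 in 0.3 g/l and at 8.39, 8.51 and 8.56 in 4.5 g/l, a difference of 0.41 ± 0.07 (1.33-fold, probe set 17241692, limma adjusted p = 0.00166). The groups did not overlap, with 0.3 g/l replicate 4 nearest to the 4.5 g/l arrays. Cyclin A2, Ccna2, which partners Cdk2 and Cdk1 from S phase to early mitosis, lay at 8.37, 8.49 and 9.00 in 0.3 g/l and at 9.04, 9.13 and 9.17 in 4.5 g/l. It rose by 0.55 ± 0.09, and cyclin B2, Ccnb2, by 0.36 ± 0.08.

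Melk, a kinase with high RNA in G2 and M phase, had the smallest p of this group. It lay at 6.37, 6.74 and 6.76 in 0.3 g/l and at 7.19, 7.25 and 7.32 in 4.5 g/l, with replicate 4 of 0.3 g/l inside its own group. Polo-like kinase 1, Plk1, which acts at centrosomes, kinetochores and the midzone, had the largest difference, 0.65 ± 0.11 (1.57-fold), and Aurora A, Aurka, rose by 0.37 ± 0.08.

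The centrosomal kinase Nek2 was close to the threshold (0.27 ± 0.09, limma adjusted p = 0.0444). It lay at 6.27 to 6.59 in 0.3 g/l and at 6.59 to 7.03 in 4.5 g/l, with replicate 4 the lowest of 0.3 g/l. Its call ended when any of 9 of the 12 arrays was left out (limma adjusted p = 0.0527 to 0.0978, and 0.0586 without 0.3 g/l replicate 4), and under quantile normalization (0.0538) and median centring (0.129). Cdca3, a factor of mitotic entry, lay at 7.19, 7.42 and 7.73 in 0.3 g/l and at 7.39, 7.68 and 7.91 in 4.5 g/l. Its difference of 0.25 ± 0.11 did not pass (limma adjusted p = 0.157). Leaving out replicate 4, its highest value in 0.3 g/l, brought it past the threshold (0.30, limma adjusted p = 0.0470), and so did replicates 1 to 3 alone (0.51, limma adjusted p = 0.0154).

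Condensin and chromosome genes rose in 6 of 6 members, with a median of 0.49. Mki67 (Ki-67), which coats mitotic chromosomes and serves as the common marker of cycling cells, lay at 9.03, 9.12 and 9.73 in 0.3 g/l and at 9.90, 9.92 and 10.01 in 4.5 g/l. The 4.5 g/l arrays were close together and above all of 0.3 g/l, and the difference was 0.75 ± 0.10 (1.68-fold, probe set 17497334, limma adjusted p = 0.000484). Top2a, the topoisomerase that untangles sister chromatids, lay at 8.27, 8.36 and 8.59 in 0.3 g/l and at 8.86, 8.96 and 9.14 in 4.5 g/l, without overlap.

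In condensin, the ring that compacts chromosomes, the core subunits and the kleisin of condensin I all rose. Smc2 lay at 7.99, 8.03 and 8.08 in 0.3 g/l and at 8.19, 8.38 and 8.43 in 4.5 g/l, a difference of 0.31 ± 0.06 with no overlap. Smc4 lay at 8.74, 9.02 and 9.32 in 0.3 g/l and at 9.24, 9.39 and 9.57 in 4.5 g/l, a difference of 0.39 ± 0.09 with overlap through replicate 4. Ncaph, the condensin I kleisin, rose by 0.59 ± 0.11. Outside the 49, Ncapd2 of condensin I rose by 0.47 ± 0.08 and Ncapd3 of condensin II by 0.36 ± 0.06. Ncapg2 of condensin II rose by 0.31 ± 0.07, whereas its kleisin Ncaph2 did not pass (-0.03 ± 0.05, limma adjusted p = 0.785). Cdca2, which brings a phosphatase to chromosomes, rose by 0.33 ± 0.07.

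The chromosomal passenger complex, which corrects wrong attachments and later moves to the midzone, had the smallest median of the 7 roles, 0.23, and 3 of its 4 members rose. Birc5 (survivin) lay at 5.05, 5.26 and 5.52 in 0.3 g/l and at 5.58, 5.69 and 5.90 in 4.5 g/l, without overlap, a difference of 0.46 ± 0.09. The scaffold Incenp lay at 6.49, 6.68 and 6.77 in 0.3 g/l and at 6.84, 6.85 and 7.01 in 4.5 g/l, a difference of 0.24 ± 0.06. The call of Incenp ended without 0.3 g/l replicate 6 (limma adjusted p = 0.0540) and under median centring (0.0790). Aurora B, Aurkb, the kinase of the complex, rose by 0.23 ± 0.07 (limma adjusted p = 0.0397), with overlap. Its call ended when any of 9 of the 12 arrays was left out (limma adjusted p = 0.0554 to 0.0919) and under median centring (0.0998), and its difference was 0.08 within replicates 4 to 6. Borealin, Cdca8, lay at 6.01, 6.15 and 6.37 in 0.3 g/l and at 6.07, 6.39 and 6.45 in 4.5 g/l. The groups overlapped, with 3 of the 4.5 g/l arrays above every 0.3 g/l array, and the difference of 0.18 ± 0.08 did not pass (limma adjusted p = 0.164).

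**Figure D3:**
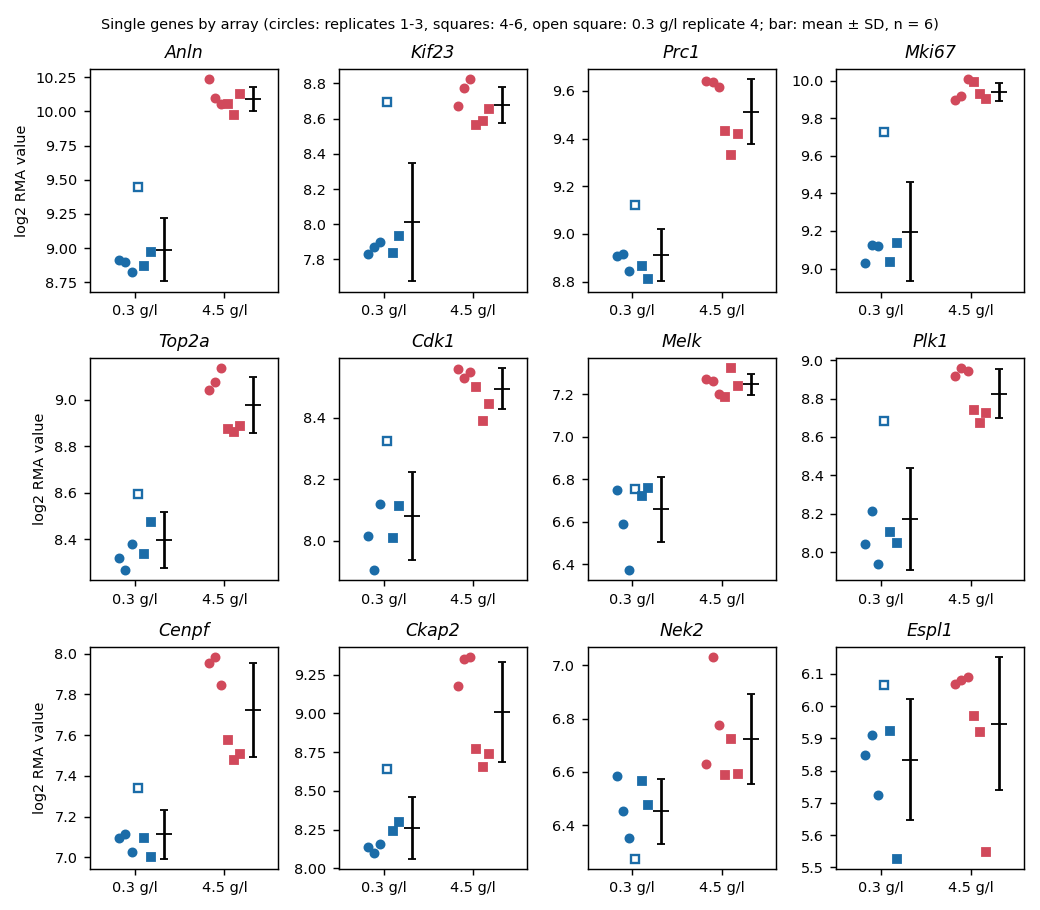
Log2 RMA value on each array of 12 genes in 0.3 g/l (blue) and 4.5 g/l glucose (red), with replicates 1 to 3 as circles, 4 to 6 as squares, 0.3 g/l replicate 4 as an open square, and the mean ± SD (n = 6) in black. Each panel has its own axis. Replicate 4 of 0.3 g/l lies among the 4.5 g/l arrays for Kif23 (8.69), between the groups for Anln (9.45) and Mki67 (9.73), and within its own group for Melk (6.76).

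The array of 0.3 g/l replicate 4 did not shift all members alike. It was the highest of its group in 35 of 47 genes and lay within the 4.5 g/l range in 16. In 43 of 47 genes the other 5 arrays of 0.3 g/l were all below every 4.5 g/l array. These counts were not made over all genes, so they are not read as particular to these genes. Counted from the mean of those 5 arrays (0%) to the 4.5 g/l mean (100%), replicate 4 had a median position of 55.4%. The midzone and furrow genes had the highest median, 70.3%, with Kif23 at 102%, Ect2 at 93.8% and Anln at 46.2%. The passenger complex had the lowest, 30.2%, but its members were spread, with Birc5 at 5.61%, Incenp at 7.53%, Aurkb at 52.9% and Cdca8 at 112%. Ttk at -4.35%, Spc25 at -8.12%, Smc2 at 14.2%, Melk at 19.4% and Tpx2 at 18.5% stayed near the rest of 0.3 g/l, whereas Ncaph at 87.1%, Ccna2 at 83.3% and Hmmr at 84.1% were near the 4.5 g/l mean. Espl1 (176%), Nek2 (-89.8%), Cdca8, Incenp and Aurkb have small differences between groups, so their positions are imprecise.

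Within 4.5 g/l, replicates 1 to 3 were higher than replicates 4 to 6 in the mean of 43 of 47 genes. The number ranges did not overlap in 30 genes, with replicates 1 to 3 above in 29 and below in 1. Neither count was made over all genes, so the split is not read as particular to these genes. The difference of replicates 1 to 3 minus replicates 4 to 6 had a median of 0.21 (log2). It was largest for Ckap2 (0.57), Cenpf (0.41) and Cdca3 (0.38). Smc4 was the gene with replicates 4 to 6 above (-0.21), at 9.42 to 9.57 against 9.24 to 9.36. Mki67 (-0.00037), Melk (-0.0046) and Bub1b (-0.032) had nearly the same mean in both ranges. In 0.3 g/l, replicates 1 to 3 minus replicates 5 and 6 gave a median of -0.032 over the 47 genes. The endothelial and fibroblast marker means given above differ between the same arrays of 4.5 g/l. The number ranges were set after this split had been seen in these data, so these differences are descriptions without a test.

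**Figure D4:**
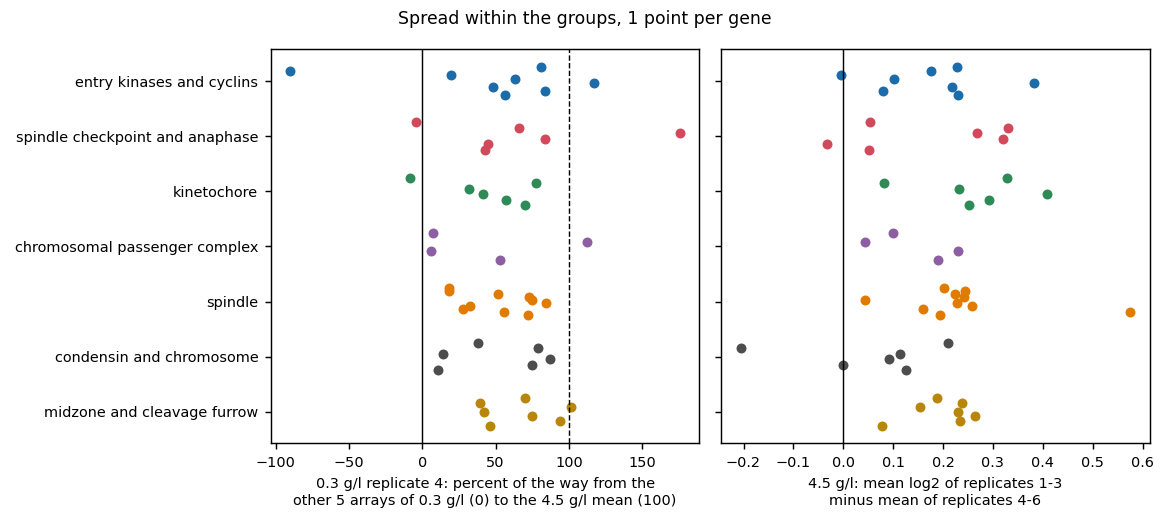
For each of the 47 genes, by role, the position of 0.3 g/l replicate 4 between the mean of the other 5 arrays of 0.3 g/l (0%) and the 4.5 g/l mean (100%, dashed line) on the left, and the mean log2 value of 4.5 g/l replicates 1 to 3 minus that of replicates 4 to 6 on the right. Most positions lie between 0 and 100%, with a median of 55.4%, and 43 of 47 differences on the right are above 0.

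**Figure D5:**
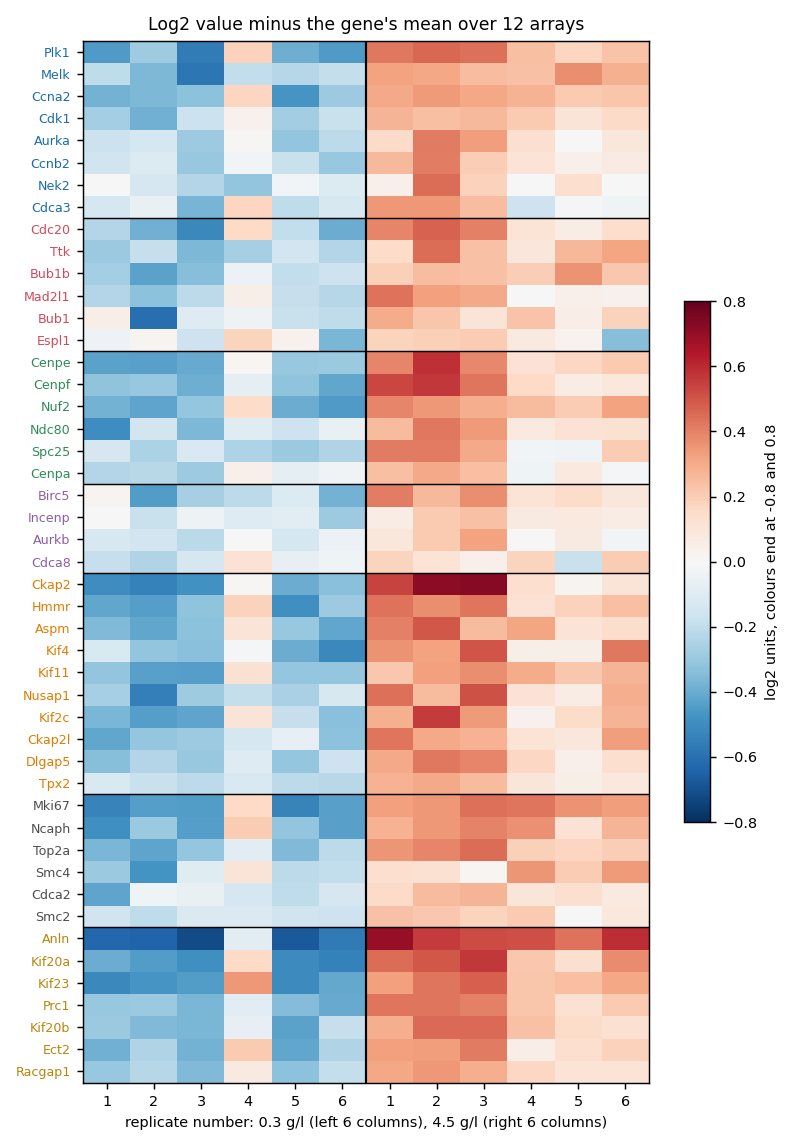
Log2 value of each of the 47 genes minus its mean over the 12 arrays, with genes in rows grouped by role (names in the colours of the plot of differences) and arrays in columns by group and replicate number. Values are mostly below the gene's mean in 0.3 g/l and above it in 4.5 g/l, with replicate 4 of 0.3 g/l paler or red and 4.5 g/l replicates 4 to 6 paler than replicates 1 to 3.

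Other genes of the same machinery were taken from lists chosen by function, and smaller shares of them passed than of the members. Members and lists were chosen with earlier results of these data known, so this contrast is not independent of that choice. Beside each list count that follows, 7.01% of all genes rose and 8.52% fell. Of 31 other kinetochore and checkpoint genes 13 rose and 0 fell, with a median log2 difference of 0.23. Ska2, of the complex that holds kinetochores on shrinking microtubules, rose by 0.60 ± 0.10, and Spdl1, which brings dynein to kinetochores, by 0.45 ± 0.07. Of 39 other spindle and centrosome genes 17 rose and 1 fell (median 0.20). The augmin complex, which branches spindle microtubules, did not move as one. Haus8 rose 2.59-fold (1.37 ± 0.17, limma adjusted p = 0.000202), from 7.06, 7.19 and 7.84 in 0.3 g/l to 8.22, 8.63 and 9.03 in 4.5 g/l. Haus2 fell by 0.25 on the log2 scale. Cep55, which acts at the final cut between daughter cells, rose by 0.51 ± 0.07.

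Of 28 other cytokinesis genes 10 rose and 1 fell (7.01% and 8.52% of all genes), with a median of 0.07. Many of them also serve the cytoskeleton outside division. The formin Diaph3, which builds the actin of the furrow, rose by 0.61 ± 0.08 and the septin Septin9 by 0.39 ± 0.05, whereas Septin6 fell by 0.95 on the log2 scale. Septin6 lay at 6.15 in 0.3 g/l replicate 4 and at 7.31 to 7.82 in the rest of that group. Of 18 other condensin and cohesin genes 8 rose and 0 fell (median 0.13), and of 28 other genes of mitotic entry and exit 8 rose and 0 fell (median 0.08). The Aurora A cofactor Bora rose by 0.52 ± 0.09 and the phosphatase Cdc25c, which activates Cdk1, by 0.42 ± 0.08. In these lists of kinetochore, condensin and entry genes 0 genes were lower at an unadjusted p under 0.05 in limma as well, and 0 in the rank-sum test.

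Of 20 measured transcription factors of the mitotic programme, 6 rose and 1 fell (7.01% and 8.52% of all genes), with a median of 0.10. Foxm1 lay at a mean of 7.44 in 0.3 g/l and 7.62 in 4.5 g/l, a difference of 0.17 ± 0.06 that did not pass (limma adjusted p = 0.0884). It did pass (0.19, limma adjusted p = 0.0330) when replicate 4 of 0.3 g/l was left out. Mybl2 (B-Myb) differed by 0.05 ± 0.09 (limma adjusted p = 0.815). Lin9, a core MuvB subunit, rose by 0.37 ± 0.07 and E2f5 by 0.35 ± 0.07. Lin37, another MuvB subunit, fell by 0.24 on the log2 scale, close to the threshold (limma adjusted p = 0.0491, and 0.0517 without 0.3 g/l replicate 4). Lin52, a MuvB subunit chosen for mention after its values were seen, lay at 7.26 in 0.3 g/l replicate 4, at 8.10 to 8.25 in the rest of that group and at 7.62 to 7.81 in 4.5 g/l. It did not pass with all arrays (-0.30 ± 0.14, limma adjusted p = 0.184) and was lower in 4.5 g/l with that array left out (-0.45, limma adjusted p = 7.7e-05). Of 31 genes of S phase entry and DNA replication 15 rose and 0 fell (median 0.21), with the helicase subunits Mcm6 at 0.70 ± 0.08 and Mcm4 at 0.59 ± 0.08.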

How the data were processed

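Total RNA of the 12 samples was hybridised to a mouse gene array. The authors deposited log2 values made by RMA (background correction, quantile normalization and probe set summary) in Expression Console, per the submitters' processing notes. Of 41345 probe sets, 23521 had a single symbol in the platform annotation, 1814 had several and 16010 had none here, and the brightest single-symbol probe set stood for each of 22180 genes. RMA compresses differences of dim probe sets, and precision is limited by having 6 arrays a group. Correlations between arrays of a group were 0.984 to 0.996, and no columns were identical.

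Groups were compared by two-sided moderated tests of limma 3.58.1 (R 4.3.3) on the deposited log2 values, adjusted by Benjamini-Hochberg over all genes at 0.05. The code was tested on simulated data. Alternatives were other scalings, filters, array weights, a replicate block, number ranges, an exact rank-sum test and leaving out each array. The members and lists were chosen with earlier results of these data known. Values by array are given for the 2 members with the smallest p in each role, for Anln, Mki67, Cdk1, Cenpa, Smc2 and Smc4, and for members that did not pass, with others where the text turns on them. Of each other list the 2 genes with the smallest p in each direction are named, with Foxm1 and Mybl2. Spc24, Ncapg2 and Ncaph2 are named beside members of their complexes, and Lin52 after its values were seen. Acta2 and Emcn are named to check the labelled cell type. Promoter letters come from RefSeq (GRCm38.p6). The osmotic control was not analysed here.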

Additional observations from a re-analysis of the deposited data

Results flagged for a closer look

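Among 138 sets of 6 arrays (69 named genes in both groups), Dixon's test marked 29 values that stood far from the rest of their group. Chance marks about 1 in 20 of independent sets, but these genes share the same arrays, so the number is a description only. Of the 29 values, 22 came from 0.3 g/l replicate 4, among them 16 members. Lin52, chosen after its values were seen, is also among the 22. The member values of that array, each the highest of 0.3 g/l (log2), were 9.00 for Ccna2, 8.68 for Plk1, 8.26 for Cenpe, 7.34 for Cenpf, 8.36 for Nuf2, 8.05 for Kif11, 6.85 for Aspm and 7.60 for Hmmr. They were 8.64 for Ckap2, 8.09 for Ncaph, 9.73 for Mki67, 9.45 for Anln, 9.12 for Prc1, 8.69 for Kif23, 9.24 for Kif20a and 9.55 for Ect2. Kif23 had the widest gap to the next array, at 7.93.

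The same array was the highest of 0.3 g/l for Haus8 (7.84), Mcm4 (8.40), Mybl2 (7.02) and Acta2 (13.62), and the lowest for Septin6 (6.15) and Lin52 (7.26). The remaining values came from other arrays. Bub1b was highest in 4.5 g/l replicate 5 (6.64), Espl1 lowest in 4.5 g/l replicate 6 (5.55) and Nusap1 lowest in 0.3 g/l replicate 2 (7.31). Lin9 was lowest in 0.3 g/l replicate 1 (6.75), Ncapd3 in 4.5 g/l replicate 2 (7.79), Haus2 in 4.5 g/l replicate 5 (7.98) and Foxm1 in 4.5 g/l replicate 3 (7.47).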

How the results depend on the processing

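Of the 47 mitosis and cytokinesis genes, 44 rose with all arrays, and 41 to 44 rose when 1 array was left out, with a median log2 difference of 0.47 to 0.54. With replicates 4 to 6 alone 0 passed and the median was 0.35, and with replicates 1 to 3 alone the median was 0.67. Fewer samples were fitted in both. In replicates 4 to 6 Cdca3 (-0.016) and Espl1 (-0.027) changed sign, without passing, and the cause was not tested. Over all genes 3444 passed, against 5419 with array weights, 1993 in the exact rank-sum test, 30 in replicates 4 to 6, and 2514 to 5295 when 1 array was left out, the highest without 0.3 g/l replicate 4. The labels do not say whether replicate numbers pair the samples. Same-numbered arrays had correlations of deviations from their group means of -0.0458 to 0.173, which cannot settle it. With the replicate number as a block 41 members rose and 3130 of all genes passed, and Nek2 (limma adjusted p = 0.0639), Cenpa (0.114) and Aurkb (0.111) did not pass. Median centring left 40 members higher and the rank-sum test 39.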
